A study of Mus musculus with 18 samples.

Results

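Effector and resting regulatory T cells (Treg) of the +/+ genotype were compared across all genes by RNA sequencing. The comparison rests on 6 of the 18 mouse libraries of the study, 3 resting and 3 effector, chosen by the genotype and Treg status in their labels. The resting +/+ group holds sorted Treg labelled FCre x C1+/+ and Resting, and the effector +/+ group holds sorted Treg with the same genotype and the status Effector. The other 12 libraries are the same 2 states from the fl/+ and fl/fl genotypes, which carry 1 or 2 fl alleles of C1, and all 18 share the FCre element. The series' design calls the states activated (eTreg) and resting (cTreg). The labels do not spell out FCre or C1, and no source used here gives the surface markers of the sorting gates or the age, sex and number of animals. No source says that libraries 1 to 3 come from separate animals, so every p-value measures the spread between these samples, which may be technical.

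Treg are CD4 T cells that restrain immune responses and depend on the transcription factor Foxp3. Resting Treg recirculate through lymphoid organs in a state close to that of naive T cells, with Ccr7 guiding them into lymph nodes and S1pr1 guiding them out. Effector Treg have met antigen, carry receptors for inflamed and barrier tissues, and make inhibitory molecules such as Il10. The series' title places the study in the field of the CBM signalosome, a complex that links antigen receptors to NF-kB.

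The 6 +/+ libraries held 1858490 to 4468720 expected counts, and levels are given as CPM, which are counts scaled to 1 common library size after TMM normalization. Treg markers were high in all 6, with Foxp3, Il2ra, Ikzf2, Cd4 and Cd3e summing to 1977 to 2263 CPM in resting and 2490 to 2879 CPM in effector libraries. Markers of other cells were lower. The 7 CD8 or NK cell markers summed to 30.7 to 35.1 CPM in resting and 50.3 to 62.5 CPM in effector libraries, with Ncr1 at 0. The 6 B cell markers summed to 9.64, 17.8 and 92.4 CPM in resting libraries 1 to 3 and to 34.4, 40.7 and 29.9 CPM in effector libraries 1 to 3. The 7 myeloid markers summed to 65.2 to 69.9 and 94.6 to 104 CPM, most of it Cst3, and the 6 stromal markers to 0.254 to 2.84 and 11.5 to 25.4 CPM, most of it Epcam. The 4 plasma cell markers summed to 90.8 to 123 CPM in resting and 84.6 to 124 CPM in effector libraries, with Tnfrsf17 at 0. Of these only Xbp1 was high enough to test. The 15 genes of dissociation stress summed to 1759, 2651 and 1107 CPM in resting libraries 1 to 3 and to 2289.8, 2793 and 1328 CPM in effector libraries 1 to 3, lowest in both libraries numbered 3. Among the 1000 genes that varied most, the first principal component held 69.7% of the variance and parted the states, with resting libraries at -38.1 to -29.9 and effector libraries at 23.4 to 40.2. The second axis held 12.2% and set both libraries numbered 3, at -19.7 and -18.6, apart from the other 4, at 4.19 to 13.6.

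Of 10630 genes tested, 1009 rose (9.49%) and 691 fell (6.5%) in effector cells at a Benjamini-Hochberg adjusted p under 0.05, so that 16% were called. The gains were larger than the losses. Among genes that rose, 602 did so by more than 2-fold and 193 by more than 8-fold, while 146 and 11 of those that fell did. Small steps made up much of the losses, since 352 of the 691 were under 1.5-fold, against 156 of the 1009. Tested against a fold of 1.5 rather than 1, 425 genes were higher and 89 lower. Genes that rose took 4.09% ± 0.0267 (SD, n = 3) of the counts of tested genes in resting cells and 8.07% ± 0.611 in effector cells, and genes that fell took 26.3% ± 0.385 and 20.1% ± 1.10. The 3 effector libraries did not overlap the 3 resting ones for 1642 of the called genes, and for 3438 (32.3%) of all genes tested. No called gene was without counts in effector cells, and 24 were without counts in resting cells. The count of genes that fell was 428 without effector library 1 and 447 without effector library 2. It was 459, beside 1330 that rose, on the authors' FPKM scale, where 74.3% of calls were gains against 59.4% here and the median gene moved by 0.09 on the log2 scale. Without both libraries numbered 3 the counts were 791 and 540.

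**Figure D1:**
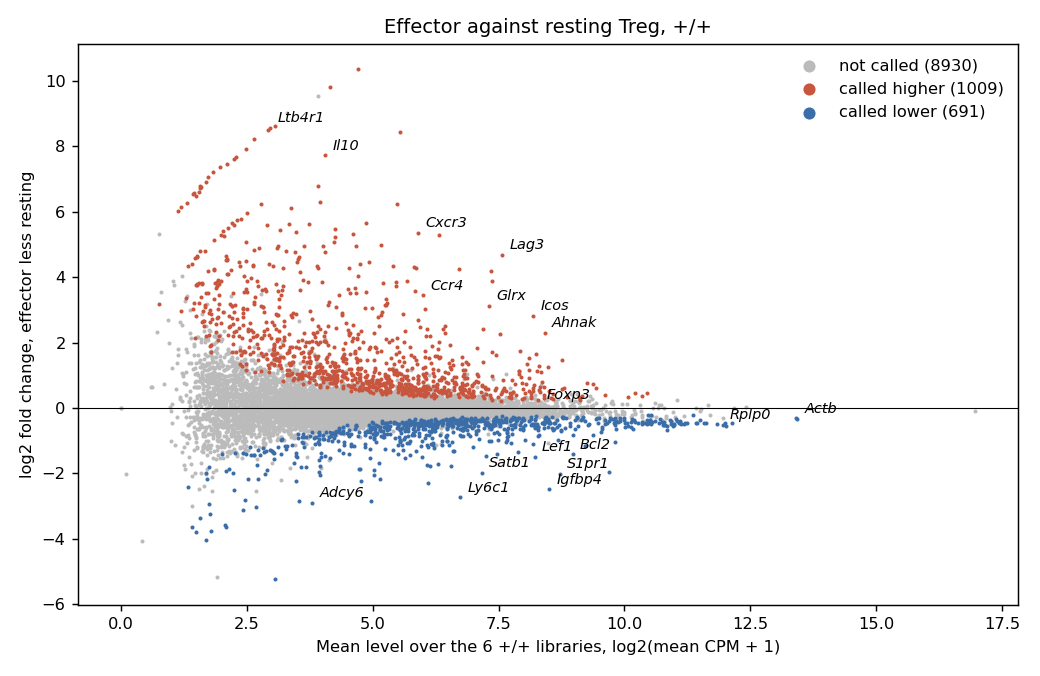
Each point is 1 of the 10630 genes tested, at its mean level over the 6 +/+ libraries, as log2(mean CPM + 1), and its fitted log2 fold change, effector less resting. The 1009 genes that rose reach far higher than the 691 that fell reach down, and the diagonal rows of points at the upper left are genes with no or few counts in resting cells, whose fitted change is set by the prior count.

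In +/+ Treg the genes of the lineage changed in part. Foxp3 stood at 403, 269 and 243 CPM in the resting libraries and 479, 226 and 269 CPM in the effector libraries, groups that overlapped (log2 fold change 0.10, 95% interval -0.40 to 0.59, adjusted p = 0.842). The IL-2 receptor chain Il2ra was not called either (log2 fold change -0.10, adjusted p = 0.708). Of 18 tested genes of Treg identity, 10 rose and none fell by the edgeR test, with a median log2 fold change of 0.59 against -0.01 over all genes tested. Gpr83, not called there (adjusted p = 0.0828), fell with the replicate number as a block (log2 fold change -0.62, adjusted p = 0.000258 by edgeR). Ctla4, which takes the costimulatory ligands from antigen-presenting cells, was at 175, 128 and 118 CPM in the resting libraries and 507, 376 and 337 CPM in the effector libraries. Each effector library exceeded each resting one (log2 fold change 1.53, SE 0.22, adjusted p = 0.000101). Nt5e, the CD73 enzyme that makes adenosine from AMP, was at 154, 182 and 99.5 CPM in the resting libraries and 505, 549.7 and 314 CPM in the effector libraries (log2 fold change 1.65, SE 0.22, adjusted p = 4.47e-05). Its partner Entpd1, the CD39 enzyme, rose by 0.97, and Nrp1, Ikzf2 and the folate receptor homologue Folr4 rose by 0.91, 0.58 and 0.75. In bulk libraries a larger share of cells with a transcript and more transcript per cell cannot be told apart.

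Receptors that steer Treg between tissues included some of the widest gains. Of 28 tested receptors for chemokines and lipid attractants, from a list of 31, 17 rose and 5 fell, with a median log2 fold change of 1.5. Cxcr3 (chrX:101731535-101734269, minus strand, GRCm38), the receptor for interferon-induced chemokines, was at 3.81, 2.84 and 1.18 CPM in the resting libraries and 117, 116 and 112 CPM in the effector libraries. The effector libraries lay close together, far above the resting ones (log2 fold change 5.36, SE 0.64, adjusted p = 1.88e-05). Ccr2, a receptor for monocyte chemoattractants, was at 1.78, 0.8105 and 0.395 CPM in the resting libraries and 103, 82.5 and 72.4 CPM in the effector libraries (log2 fold change 6.24, SE 0.76, adjusted p = 2.18e-05). Ccr4, the receptor for Ccl17 and Ccl22, was at 15.2, 9.73 and 5.53 CPM in the resting libraries and 118, 124 and 106 CPM in the effector libraries (log2 fold change 3.44, SE 0.30, adjusted p = 2.37e-06). Cxcr6, the receptor for Cxcl16, was at 4.82, 6.89 and 5.13 CPM in the resting libraries and 140.5, 127 and 57.7 CPM in the effector libraries, with effector library 3 below the other effector libraries but above all resting ones (log2 fold change 4.29, SE 0.76, adjusted p = 0.000567). Ltb4r1, the high-affinity leukotriene B4 receptor, had no counts in any resting library and was at 17.96, 8.46 and 14.4 CPM in effector libraries, at least 40.6-fold higher when the resting group is set to a floor of 3 counts. Gpr15, Ccr6, Cxcr5 and Ccr8 rose by 3.86, 3.21, 2.51 and 2.24.

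Receptors of lymphoid recirculation were among those that fell. S1pr1, which leads T cells out of lymph nodes along a lipid gradient, was at 656, 606 and 750.5 CPM in the resting libraries and 136, 115 and 249 CPM in the effector libraries (log2 fold change -2.01, SE 0.29, adjusted p = 8.86e-05). Every effector library was below every resting one, with effector library 3 the highest of the effector group. Ccr7 was at 919.6, 791 and 833 CPM in the resting libraries and 431, 401 and 608 CPM in the effector libraries (log2 fold change -0.82, SE 0.17, adjusted p = 0.00223). Gpr18, S1pr4 and Ptgir fell by 0.52, 0.72 and 1.12 on the log2 scale. The number of receptors that fell was 3 in place of 5 without resting library 1, effector library 1 or resting library 3.

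**Figure D2:**
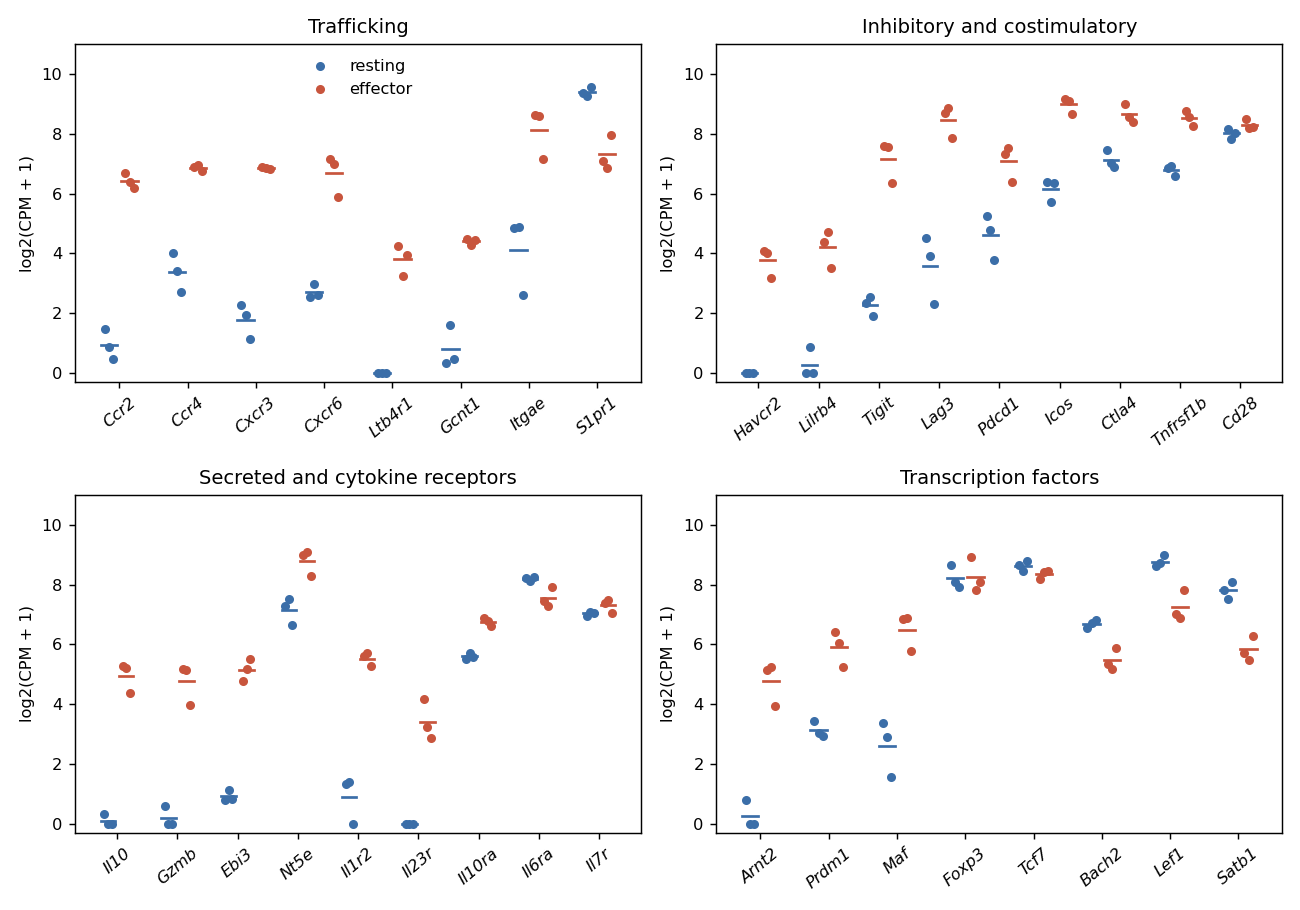
Level of 34 genes in each +/+ library as log2(CPM + 1), in 4 panels by role. Points are the 3 resting (blue) and 3 effector (red) libraries in the order 1 to 3 and bars are group means. Tissue-homing and inhibitory receptors lie apart between the states, with Havcr2, Ltb4r1 and Il23r at 0 in resting cells, while Foxp3, Tcf7 and Il7r overlap.

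Adhesion molecules moved in both directions. Of 21 tested integrins and adhesion molecules, 9 rose and 5 fell, with a median of 0.15. Itgae, the CD103 chain that holds T cells to epithelium, was at 27.7, 28.4 and 5.13 CPM in the resting libraries and 399, 382 and 143 CPM in the effector libraries (log2 fold change 3.88, SE 0.66, adjusted p = 0.000371). Both libraries numbered 3 were the lowest of their group. Itgb1, Itgb8, Cd44 and Itgal rose by 2.42, 2.46, 1.72 and 0.75; Itgb8 pairs with Itgav, which rose by 1.52, to activate latent TGF-beta. Itgb3, the beta chain of the vitronectin receptor, was at 90.8, 87.9 and 143 CPM in the resting libraries and 19.6, 20.1 and 55.1 CPM in the effector libraries (log2 fold change -1.77, SE 0.33, adjusted p = 0.000787). Pecam1, Cd9 and Icam2 fell by 1.01, 0.52 and 0.49. Only 3 members fell when resting library 1 or effector library 2 was left out.

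Enzymes that build selectin ligands were among the genes that rose. Of 29 tested glycosyltransferases and sulfotransferases, from a list of 37, 8 rose and 2 fell, with a median of 0.21. Gcnt1, the core 2 branching enzyme, was at 0.254, 2.03 and 0.395 CPM in the resting libraries and 21.3, 18.5 and 20.7 CPM in the effector libraries (log2 fold change 4.61, SE 0.67, adjusted p = 0.000101). Chst2, a sulfotransferase of N-acetylglucosamine, was at 1.01, 2.03 and 1.18 CPM in the resting libraries and 30.6, 25.4 and 23.7 CPM in the effector libraries (log2 fold change 4.27, SE 0.49, adjusted p = 1.43e-05). Fut7, the fucosyltransferase of sialyl Lewis x, was at 2.28, 1.22 and 0.7896 CPM in the resting libraries and 7.82, 9.51 and 6.65 CPM in the effector libraries (log2 fold change 2.35, SE 0.55, adjusted p = 0.00522). For all 3 the resting libraries held few counts and lay below every effector library. Galnt10 and C1galt1, which start and extend O-glycans, fell by 1.26 and 1.16, and C1galt1 missed the threshold without effector library 1 (adjusted p = 0.081) or 2 (adjusted p = 0.08). The number that rose was 5 without resting library 1 or effector library 1, and the number that fell was 5 with the replicate number as a block.

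Several coinhibitory receptors rose by large factors from low resting levels. Of 14 tested, from a list of 18, 7 rose and none fell, with a median of 1.34. Tigit (chr16:43648867-43664146, GRCm38), which competes with Cd226 for its ligands, was at 4.06, 4.86 and 2.76 CPM in the resting libraries and 191, 188 and 80.6 CPM in the effector libraries. Effector library 3 was lower than effector libraries 1 and 2, and all 3 exceeded the resting libraries (log2 fold change 5.28, SE 0.71, adjusted p = 4.28e-05). Lag3, which binds MHC class II, was at 22.1, 14.2 and 3.95 CPM in the resting libraries and 409, 460.4 and 228 CPM in the effector libraries, again with effector library 3 the lowest of its group (log2 fold change 4.68, SE 0.48, adjusted p = 6.46e-06). Pdcd1, which encodes PD-1, was at 37.3, 26.7 and 12.6 CPM in the resting libraries and 158, 182 and 83.2 CPM in the effector libraries (log2 fold change 2.42, SE 0.37, adjusted p = 0.000139). Havcr2, which encodes TIM-3, had no counts in resting cells and stood at 15.8, 15.3 and 8.13 CPM in effector cells, at least 39.1-fold higher. Lilrb4 was higher by 80.98-fold (95% counting interval 22.1 to 674, from 2 resting and 169 effector counts) (adjusted p = 2.27e-05). Btla, Cd5 and Cd96 were not called, at -0.13, -0.10 and -0.24, and Klrg1 was at 3.49 with an adjusted p of 0.0542, or 3.65 and 0.000239 with the replicate number as a block.

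Costimulatory receptors rose in part. Of 18 tested, 9 rose and none fell, with a median of 0.45. With the replicate number as a block Cd7 and Tnfrsf25 fell, by 0.83 and 0.49, and 2 members fell without effector library 3. Icos was at 81.9, 51.9 and 81.3 CPM in the resting libraries and 573, 547 and 407 CPM in the effector libraries (log2 fold change 2.82, SE 0.32, adjusted p = 1.43e-05), and it ranked next to Ahnak by gain in CPM among called genes. Tnfrsf1b, the TNF receptor that supports Treg growth, was at 114, 121 and 95.9 CPM in the resting libraries and 434, 376 and 308 CPM in the effector libraries (log2 fold change 1.76, SE 0.22, adjusted p = 2.83e-05). All effector libraries were above all resting libraries for both. Tnfrsf4 and Slamf6 rose by 0.63 and 0.86. Tnfrsf9 rose by 0.79, a call lost without effector library 1 (adjusted p = 0.058) or resting library 3 (adjusted p = 0.083). Cd28, Cd27 and Tnfrsf18 were not called, at 0.29, -0.03 and 0.15.

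Secreted and surface effector molecules held the largest share of gains among the lists. Of 23 tested, from a list of 30, 17 rose and 1 fell, with a median of 2.46. Il10, the inhibitory cytokine, was at 0.254, 0 and 0 CPM in the resting libraries and 37.8, 36.5 and 19.6 CPM in the effector libraries, a ratio of 288-fold (95% counting interval 51.4 to 11431, from 1 resting and 301 effector counts) (adjusted p = 1.53e-05). Gzmb, the cytotoxic protease granzyme B, was at 0.507, 0 and 0 CPM in the resting libraries and 35.1, 34.4 and 14.8 CPM in the effector libraries, a ratio of 129.9-fold (95% counting interval 35.6 to 1078, from 2 resting and 271 effector counts) (adjusted p = 8.75e-05). Resting cells held almost no reads of either, and effector library 3 held the fewest of the effector group. Ebi3, a chain of IL-35 and IL-27, was at 0.761, 1.22 and 0.7896 CPM in the resting libraries and 26.6, 34.9 and 44.4 CPM in the effector libraries, and here effector library 3 was the highest (log2 fold change 5.23, SE 0.72, adjusted p = 5.51e-05). Penk, Fgl2, Tnfsf11, Furin and Lgals1 rose by 3.55, 3.82, 2.85, 2.28 and 1.42.

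Perforin went the other way. Prf1, which opens pores for granzymes, was at 15.2, 15.8 and 19.3 CPM in the resting libraries and 4.22, 3.17 and 2.96 CPM in the effector libraries (log2 fold change -2.22, SE 0.40, adjusted p = 0.000591), so the groups did not overlap. Tgfb1 was not called (-0.12, adjusted p = 0.897). Beside these genes, the CD8 or NK cell markers moved unevenly: Nkg7 rose from 7.57 to 37.4 CPM and Cd8b1 fell from 22.7 to 14 CPM. Klrb1c, the other tested member, was also higher in every effector library than in every resting one. Of the 3 tested, 1 was called higher and 1 lower, with a median log2 fold change of 2.30. Cd8a, Eomes, Klrd1 and Ncr1 were too low to test. The part of CD8 or NK cells in these results was not tested.

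Cytokine receptors moved in both directions. Of 32 tested, 10 rose and 5 fell, with a median of 0.21. Il1r2, the decoy receptor for IL-1, was at 1.52, 1.62 and 0 CPM in the resting libraries and 47.7, 51.3 and 37.7 CPM in the effector libraries (log2 fold change 5.31, SE 0.58, adjusted p = 1.05e-05). Il23r had no counts in resting cells and was at 16.9, 8.46 and 6.28 CPM in effector cells, at least 31.4-fold higher. Il18r1, Il18rap, Il1rl1 (ST2), Il12rb1 and Il10ra rose by 1.86, 3.58, 2.43, 2.13 and 1.17. Chains of the IL-17 receptors went both ways: Il17rb rose by 2.92, a call lost when any 1 library other than effector library 3 was left out (adjusted p 0.0647 to 0.0935), and Il17ra fell. The others that fell were chains of the IL-6, IL-4 and interferon receptors. Il6ra was at 296, 279 and 304 CPM in the resting libraries and 173, 153 and 242 CPM in the effector libraries (log2 fold change -0.63, SE 0.16, adjusted p = 0.0107), with no overlap. Ifngr2, Il17ra, Il4ra and Ifnar1 fell by 1.18, 0.67, 0.61 and 0.57. Il7r, often used to part naive from effector cells, overlapped between the groups at 123, 135 and 133 CPM in the resting libraries and 168, 177 and 132 CPM in the effector libraries (log2 fold change 0.28, 95% interval -0.32 to 0.89). The number that fell was 3 without effector library 2.

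Transcription factors of effector and tissue Treg rose in the majority. Of 43 tested, from a list of 48, 25 rose and 1 fell, with a median of 0.81. Prdm1, which encodes BLIMP-1, was at 9.89, 7.29 and 6.71 CPM in the resting libraries and 85.3, 65.01 and 37.3 CPM in the effector libraries (log2 fold change 2.95, SE 0.37, adjusted p = 2.68e-05). Maf, which drives Il10 transcription, was at 9.39, 6.48 and 1.97 CPM in the resting libraries and 113, 116 and 54.3 CPM in the effector libraries (log2 fold change 3.89, SE 0.50, adjusted p = 2.9e-05). Every effector library exceeded every resting one for these genes. Tbx21, the TH1 factor, was at 1.52, 2.03 and 1.18 CPM in the resting libraries and 16.3, 24.8 and 18.9 CPM in the effector libraries (log2 fold change 3.61, SE 0.79, adjusted p = 0.00333). Batf and Irf4, which bind DNA together, rose by 1.57 and 1.53, and the aryl hydrocarbon receptor Ahr and its relative Arnt2 rose as well. Arnt2 was higher by 86.6-fold (95% counting interval 29.3 to 422, from 3 resting and 271 effector counts) (adjusted p = 3.32e-05), and Ahr by 3.93 on the log2 scale. The TH2 factor Gata3 was not called, at 209, 227 and 228 CPM in the resting libraries and 254, 236 and 254 CPM in the effector libraries (log2 fold change 0.17, adjusted p = 0.397), nor was Stat3 at -0.04. Mxd1, an antagonist of Myc, was the member that fell, by 0.91.

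Transcription factors listed for resting T cells fell in part. Of 29 tested, 9 fell and 1 rose, with a median of -0.31, and 14 fell with the replicate number as a block. Satb1, a chromatin organiser, was at 224, 183 and 273 CPM in the resting libraries and 51.3, 43.9 and 77.6 CPM in the effector libraries (log2 fold change -1.97, SE 0.23, adjusted p = 1.43e-05). Lef1, a partner of beta-catenin, was at 390.4, 419 and 503 CPM in the resting libraries and 128, 117 and 224 CPM in the effector libraries (log2 fold change -1.48, SE 0.18, adjusted p = 2.01e-05). Klf2, which drives S1pr1, was at 23.1, 23.1 and 22.1 CPM in the resting libraries and 6.34, 3.7 and 6.65 CPM in the effector libraries (log2 fold change -1.97, SE 0.38, adjusted p = 0.00111). Effector libraries lay below resting ones for all 3. Bach2, which holds back effector programmes, fell by 1.22, and Foxp1 and Ikzf1 fell by 0.63 and 0.63. Myc, which the list holds although it is not a quiescence factor, fell by 0.77. Tcf7, which acts beside Lef1, overlapped between groups at 406, 348 and 440.2 CPM in the resting libraries and 287, 345 and 351 CPM in the effector libraries (log2 fold change -0.28, 95% interval -0.56 to -0.00, adjusted p = 0.167). Nr1d2 was the member that rose, by 1.09.

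The promoters of called genes were searched for letters that T cell transcription factors bind, as a description. Windows ran from 250 bases before to 50 after the first start listed by RefSeq (GRCm38.p6), and 7974 tested genes had one. The letters TGANTCA, which AP-1 and BATF bind, were on either strand in 7.37% of 746 promoters of genes that rose, 4.89% of 511 that fell and 4.55% of all. The NF-kB letters GGGANTTTC were in 1.61%, 0.587% and 0.978%. The KLF letters CCACACCC were in 4.96%, 3.52% and 3.8%, and the TCF and LEF letters CTTTGAT in 2.55%, 2.54% and 2.37%. The BLIMP-1 letters AGTGAAAG were in 1.07%, 1.37% and 1.10%. For the E-box CACGTG the shares were 8.98%, 8.41% and 10.7%, and for the cyclic AMP response element TGACGTCA they were 2.14%, 3.52% and 3.42%. The motifs share no required overlap, and a match is only a match of letters. Sequences of 3 genes that rose and 1 that fell are shown because each holds TGANTCA, in capitals, and because they show that the letters occur on both sides. They are Ccr4 (chr9:114496495-114496794, minus strand), Gzmb (chr14:56262285-56262584, minus strand), S100a11 (chr3:93520246-93520545, plus strand, 2 matches) and Ecm1 (chr3:95739520-95739819, minus strand).
Ccr4: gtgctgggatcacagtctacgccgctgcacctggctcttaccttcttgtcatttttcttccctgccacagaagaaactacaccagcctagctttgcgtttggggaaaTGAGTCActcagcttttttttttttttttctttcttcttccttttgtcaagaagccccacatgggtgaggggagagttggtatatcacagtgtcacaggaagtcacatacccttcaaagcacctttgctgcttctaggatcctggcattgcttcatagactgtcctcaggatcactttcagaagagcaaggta
Gzmb: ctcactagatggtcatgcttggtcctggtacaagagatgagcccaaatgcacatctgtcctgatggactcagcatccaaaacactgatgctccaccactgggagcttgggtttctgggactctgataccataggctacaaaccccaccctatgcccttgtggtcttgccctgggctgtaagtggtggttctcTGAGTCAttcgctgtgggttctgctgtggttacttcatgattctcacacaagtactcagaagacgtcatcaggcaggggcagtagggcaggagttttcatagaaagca
S100a11: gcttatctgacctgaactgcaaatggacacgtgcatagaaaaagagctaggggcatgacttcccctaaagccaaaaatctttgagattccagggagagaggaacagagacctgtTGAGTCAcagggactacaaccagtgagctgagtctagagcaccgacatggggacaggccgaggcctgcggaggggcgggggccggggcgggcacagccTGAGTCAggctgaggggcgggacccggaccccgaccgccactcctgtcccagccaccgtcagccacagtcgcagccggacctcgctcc
Ecm1: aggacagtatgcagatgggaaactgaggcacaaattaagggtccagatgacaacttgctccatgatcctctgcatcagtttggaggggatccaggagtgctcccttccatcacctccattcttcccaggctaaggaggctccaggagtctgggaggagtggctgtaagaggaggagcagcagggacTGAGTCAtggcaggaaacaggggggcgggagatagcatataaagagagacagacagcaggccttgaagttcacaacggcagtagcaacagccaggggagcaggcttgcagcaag
Ecm1, a secreted glycoprotein of the extracellular matrix, was at 209, 239 and 220.3 CPM in the resting libraries and 70.8, 61.3 and 108 CPM in the effector libraries, lower in every effector library (log2 fold change -1.47, SE 0.22, adjusted p = 0.00012). S100a11, a calcium-binding protein, was at 16.2, 14.6 and 16.6 CPM in the resting libraries and 107, 127 and 71.3 CPM in the effector libraries, higher in every effector library (log2 fold change 2.68, SE 0.34, adjusted p = 2.83e-05).

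**Figure D3:**
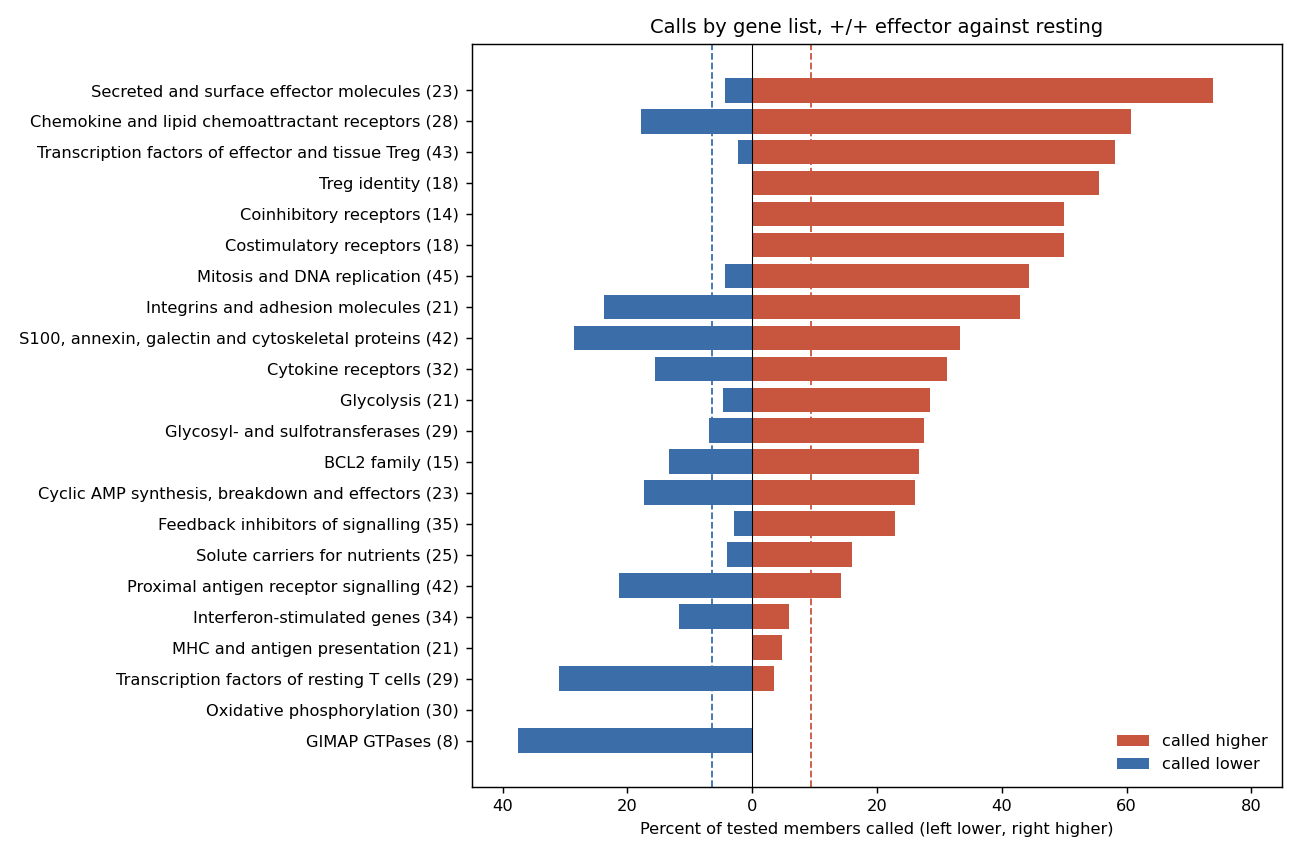
Percent of the tested members of each gene list called higher (right, red) or lower (left, blue) in +/+ effector cells, with the number tested in brackets. Dashed lines mark the 9.49% and 6.5% of all genes tested. Secreted molecules, chemoattractant receptors and effector transcription factors lie farthest to the right, and no gene of oxidative phosphorylation was called.

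Genes of proximal antigen receptor signalling moved in both directions. Of 42 tested genes 6 rose and 9 fell, with a median of -0.09. Malt1, the protease of the CBM complex, was at 44.9, 78.6 and 80.1 CPM in the resting libraries and 171, 192 and 145 CPM in the effector libraries (log2 fold change 1.33, SE 0.22, adjusted p = 0.000278). Sh2d1a, the SLAM adaptor SAP, was at 46.4, 50.7 and 53.7 CPM in the resting libraries and 137, 147 and 109 CPM in the effector libraries (log2 fold change 1.38, SE 0.19, adjusted p = 4.28e-05). For both the groups did not overlap. Zap70, the kinase of the receptor's zeta chains, rose by 0.64. Txk, a kinase of the Tec family, was at 121, 119 and 178 CPM in the resting libraries and 52.8, 43.3 and 70.96 CPM in the effector libraries (log2 fold change -1.31, SE 0.20, adjusted p = 0.000118), and Themis, Pag1, Dgka and Prkcq fell by 0.81, 0.87, 0.65 and 0.57. Bcl10 was not called, at 0.20, nor were Lck, Cd3d and Cd247, at 0.10, 0.05 and -0.20.

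Inhibitors that act after signalling rose in a minority. Of 35 tested, 8 rose and 1 fell, with a median of 0.36, and 13 rose with the replicate number as a block. Ptpn5, a phosphatase of MAP kinases, had no counts in resting cells and was at 16.1, 16.9 and 10.7 CPM in effector cells, at least 43.4-fold higher. Rgs16, which shortens G protein signals, was at 21.6, 20.3 and 3.95 CPM in the resting libraries and 78.2, 81.9 and 29.2 CPM in the effector libraries, with both libraries numbered 3 the lowest of their group (log2 fold change 2.00, SE 0.48, adjusted p = 0.00632). Dusp14, another phosphatase of MAP kinases, was higher by 14.4-fold (95% counting interval 4.61 to 72.3, from 3 resting and 45 effector counts). Sla, an adaptor that lowers antigen receptor levels, and Ndfip1, an activator of ubiquitin ligases, rose by 0.93 and 0.61. Nfkbiz, an atypical IkB protein, fell by 0.71.

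Genes of cyclic AMP synthesis, breakdown and response moved in both directions. Of 23 tested, 6 rose and 4 fell, with a median of 0.16. Adcy6, an adenylyl cyclase, was at 21.3, 22.7 and 24.5 CPM in the resting libraries and 2.11, 0.529 and 6.28 CPM in the effector libraries, lower in every effector library (log2 fold change -2.89, SE 0.36, adjusted p = 2.41e-05). Ptger2, a receptor for prostaglandin E2 that raises cyclic AMP, was at 45.9, 65.2 and 40.7 CPM in the resting libraries and 145, 151 and 121 CPM in the effector libraries (log2 fold change 1.47, SE 0.20, adjusted p = 6.39e-05). Ptger4 and the adenosine receptor Adora2a rose by 0.87 and 0.82. The phosphodiesterases Pde4a and Pde4d went opposite ways, at 2.51 and -0.91. The call of Pde4a was lost without effector library 1 (adjusted p = 0.133), and that of Pde4d without resting library 1, resting library 3, effector library 2 or effector library 3 (adjusted p 0.113 to 0.158). Rapgef6 and Akap13 fell by 0.53 and 0.43, and Adcy7 and Prkar1a rose by 0.43 and 0.37. Pde3b, the phosphodiesterase repressed in Treg, was at -1.34 with an adjusted p of 0.139, or -1.48 and 0.0244 with the replicate number as a block.

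Several S100 proteins and annexins rose and several actin regulators fell. Of 42 tested S100, annexin, galectin and cytoskeletal genes 14 rose and 12 fell, with a median of -0.02. S100a4 was at 1.27, 0 and 0.7896 CPM in the resting libraries and 39.3, 36.5 and 30.7 CPM in the effector libraries (log2 fold change 5.46, SE 0.73, adjusted p = 4.1e-05) and S100a6 at 3.298, 2.03 and 1.18 CPM in the resting libraries and 55.6, 45.98 and 46.2 CPM in the effector libraries (log2 fold change 4.40, SE 0.56, adjusted p = 2.9e-05). Ahnak, a giant scaffold that binds the S100a10 and Anxa2 complex, was at 145, 156 and 42.2 CPM in the resting libraries and 624, 561 and 519 CPM in the effector libraries (log2 fold change 2.30, SE 0.36, adjusted p = 0.000166), the largest gain in CPM. Resting library 3 was far below the other resting libraries for this gene. Anxa2 and S100a10 rose by 2.02 and 0.75. Cnn3, an actin-binding calponin, was at 45.7, 44.2 and 67.5 CPM in the resting libraries and 3.38, 6.87 and 13.3 CPM in the effector libraries, apart in the other direction (log2 fold change -2.83, SE 0.36, adjusted p = 2.9e-05). Msn, Ezr, Flna and Tmsb10 fell by 0.42, 0.50, 0.46 and 0.65. Actb was at 13059, 11341 and 12589 CPM in the resting libraries and 10111, 8904 and 10447 CPM in the effector libraries, and its call (log2 fold change -0.33, adjusted p = 0.0415) was lost without resting library 1 (0.18), effector library 1 (0.082), effector library 2 (0.19) or resting library 3 (0.095), with those adjusted p-values. Without resting library 1, effector library 1 or effector library 2, 6, 7 and 6 members fell in place of 12. Of the 8 GIMAP GTPases, which act in lymphocyte survival, 3 fell and none rose (median -0.17), 1 of them without both libraries numbered 3. They were Gimap4, Gimap9 and Gimap3, which fell by 0.38, 0.39 and 0.21, and the call of Gimap3 was lost when any 1 of the 6 libraries was left out (adjusted p 0.0685 to 0.129).

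Survival genes moved in both directions. Of 15 tested BCL2 family genes, 4 rose and 2 fell, with a median of 0.06. Bcl2 was at 727, 731 and 734 CPM in the resting libraries and 252, 224 and 345 CPM in the effector libraries, and the effector libraries lay well below (log2 fold change -1.42, SE 0.19, adjusted p = 5.51e-05). Its antagonist Bcl2l11, which encodes BIM, fell by 0.87. Bcl2l1 and the NOXA gene Pmaip1 rose by 0.59 and 2.22. The near-identical copies Bcl2a1a, Bcl2a1b and Bcl2a1d summed to 45.2, 57.1 and 41.1 CPM in resting and 171, 181 and 126 CPM in effector libraries, and their single values depend on how reads were divided.

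Metabolic genes were called in uneven shares, beside 9.49% that rose and 6.5% that fell over all genes tested. Of 21 tested genes of glycolysis 6 rose and 1 fell (median 0.22), and Tpi1, triose phosphate isomerase, was at 55.8, 52.3 and 55.7 CPM in the resting libraries and 112, 116 and 121 CPM in the effector libraries (log2 fold change 1.09, SE 0.19, adjusted p = 0.000386). Gapdh, Pgam1 and Pkm rose by 0.45, 0.74 and 0.39, and Pdk1, which keeps pyruvate from mitochondria, fell by 0.85. No library overlapped between groups for Tpi1 or Gapdh. Of 25 nutrient transporters 4 rose and 1 fell (median 0.22), and Slc29a1, a nucleoside transporter, rose by 1.15, while Slc38a2, a glutamine carrier, fell by 0.61. Of 30 tested genes of oxidative phosphorylation none was called by the edgeR test (median -0.05), with 3 at an unadjusted p under 0.05, 0 called by DESeq2 or limma-voom and 1 on the log2(FPKM + 1) scale.

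Cytosolic ribosomal proteins, a group chosen after its values were seen, fell by small steps. Of 79 tested, picked by symbol, 59 fell and none rose, with a median of -0.44 and a range of -1.28 to 0.04. The symbols also took in Rps19bp1, by its name a binding protein of Rps19, which was not called (adjusted p = 0.957). Rplp0, of the ribosomal stalk, was at 4758, 5125 and 4080.1 CPM in the resting libraries and 3014, 3133 and 3629 CPM in the effector libraries (log2 fold change -0.51, SE 0.10, adjusted p = 0.00158). Rpl5 was at 4886, 5221 and 4661 CPM in the resting libraries and 3293, 3329.9 and 3569 CPM in the effector libraries, and the groups were apart for both (log2 fold change -0.54, SE 0.10, adjusted p = 0.00072). All tested genes with a symbol of Rpl or Rps and a digit, a set not identical to the 79, took 12.08 to 13.96% of the counts in resting and 9.91 to 10.9% in effector libraries. Without resting library 2 the number was 39, and against a fold of 1.5 it was 0. Several have processed pseudogenes of near-identical sequence, so single values are uncertain.

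Some genes of mitosis and DNA replication rose, in a count that rested largely on 1 library. Of 45 tested 20 rose and 2 fell, with a median of 0.87. Mki67, a marker of cycling cells, was at 9.64, 10.1 and 6.32 CPM in the resting libraries and 34.6, 22.7 and 67.3 CPM in the effector libraries (log2 fold change 2.25, SE 0.43, adjusted p = 0.00107). Ccnb1, the mitotic cyclin, was at 1.01, 1.22 and 2.76 CPM in the resting libraries and 5.704, 4.23 and 31.8 CPM in the effector libraries, where effector library 3 held most of the signal (log2 fold change 3.10, SE 0.74, adjusted p = 0.00607). Of the 20 genes, 17 were highest in effector library 3 among the effector libraries. Without that library 7 rose, and without both libraries numbered 3 it was 5. The count was 13 without resting library 1 or 3. Ccnb1 was at 1.68 without effector library 3 (adjusted p = 0.08), and Ccna2, called at 2.43, was at 1.47 (adjusted p = 0.21). The replicative helicase gene Mcm6 was at 149, 148 and 106 CPM in the resting libraries and 238, 283 and 218 CPM in the effector libraries, where effector library 3 was the lowest of its group and still above the resting libraries (log2 fold change 0.87, SE 0.14, adjusted p = 0.000203). Cdkn2d, an inhibitor of the G1 kinases, and Cdk2 fell by 1.07 and 0.55.

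**Figure D4:**
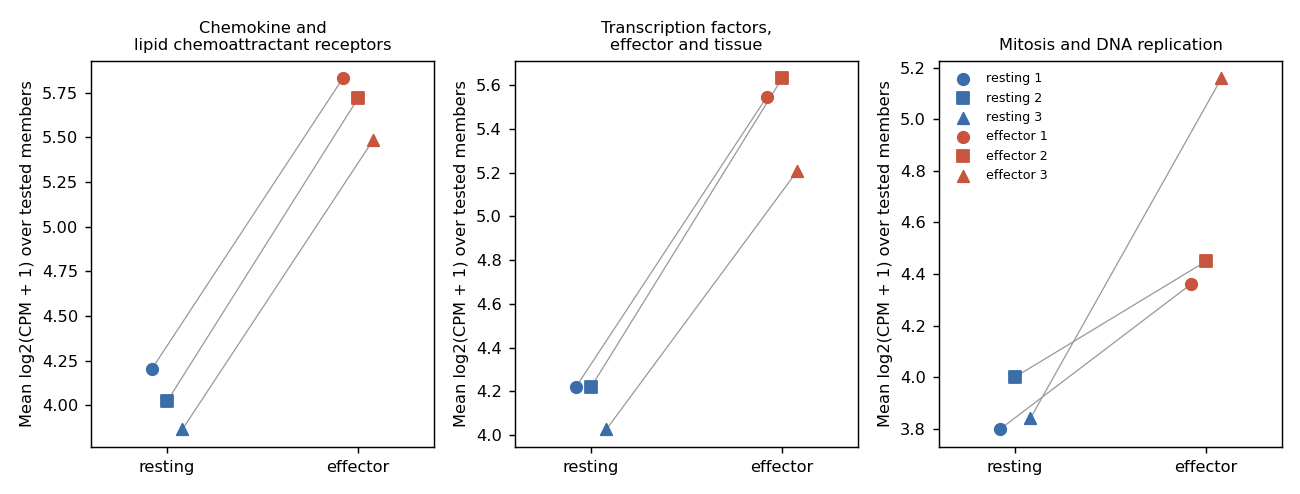
Mean of log2(CPM + 1) over the tested members of 3 lists in each +/+ library, 28 receptors, 43 transcription factors and 45 genes of mitosis and replication. Lines join the resting and effector libraries of the same number. Effector library 3 is the lowest effector library for the first 2 lists and the highest for the third.

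The same library stood nearest to resting cells in many genes. Among the 3 effector libraries it lay nearest to the resting group for 592 of the 1009 genes that rose (58.7%) and 418 of the 691 that fell (60.5%). Igfbp4, a binding protein of insulin-like growth factors, was at 714, 603 and 532 CPM in the resting libraries and 78.6, 46.5 and 206 CPM in the effector libraries (log2 fold change -2.47, SE 0.45, adjusted p = 0.000662), and Ly6c1, a surface antigen of the Ly6 family, was at 141, 147 and 261 CPM in the resting libraries and 9.51, 8.46 and 65.8 CPM in the effector libraries (log2 fold change -2.73, SE 0.65, adjusted p = 0.00622). In both, effector library 3 was the highest of the effector group and still below every resting library.

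Interferon and antigen presentation genes were mostly not called, but so were most genes tested, of which 16% were called. Of 34 interferon-stimulated genes 2 rose and 4 fell (median -0.21), with 4 and 10 when the replicate number was a block. Gbp3 and Gbp5, GTPases induced by interferon-gamma, rose by 0.85 and 0.60. Oas2, Ifit2, Ifi35 and Ddx58, sensors and effectors of antiviral defence, fell by 1.88, 0.53, 0.50 and 0.43. None rose without resting library 1, effector library 1, resting library 3 or both libraries numbered 3, and 1 rose without effector library 2 or effector library 3. The number that fell was 1 without effector library 1 or effector library 2 and 2 without resting library 2 or resting library 3. Of 21 genes of MHC and antigen presentation 1 rose, Cd86, by 0.75 (median -0.02), and that call was lost when any 1 library other than resting library 1 was left out (adjusted p 0.0516 to 0.0849). H2-Ab1, a class II chain of B cells and myeloid cells, was at 0, 1.22 and 67.1 CPM in the resting libraries and 1.901, 2.64 and 14.8 CPM in the effector libraries, and resting library 3, the one with 92.4 CPM of B cell markers, was highest. It was not called (-1.82, adjusted p = 0.413), and the part of B cells was not tested.

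Some abundant genes were measured precisely and showed no called change. Among list members that were not called, the smallest standard errors were those of class I genes, antigen receptor components, Il2rg, Tln1 and Atp5a1. H2-K1 was at 4809.8, 4588 and 4601 CPM in the resting libraries and 4829, 4615 and 4485 CPM in the effector libraries (log2 fold change -0.01, 95% interval -0.15 to 0.14). B2m, the class I light chain, was at -0.03 (95% interval -0.19 to 0.12), and Lck, Tln1 and Atp5a1 at 0.10 (95% interval -0.04 to 0.25), 0.06 (95% interval -0.10 to 0.22) and -0.06 (95% interval -0.21 to 0.10). On the log2(FPKM + 1) scale Lck was called at 0.20 (adjusted p = 0.0393). Il2rg, the common gamma chain, was at -0.19 (95% interval -0.35 to -0.03, adjusted p = 0.0919).

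Other genes with large changes at 50 CPM or more included several outside the lists. Ttn, a muscle scaffold protein, was at 16.7, 18.2 and 16.2 CPM in the resting libraries and 358, 356 and 209.6 CPM in the effector libraries (log2 fold change 4.17, SE 0.49, adjusted p = 1.52e-05). Glrx, a glutaredoxin, was at 33.99, 40.9 and 21.7 CPM in the resting libraries and 307, 293 and 248 CPM in the effector libraries (log2 fold change 3.13, SE 0.26, adjusted p = 1.25e-06). Angptl2, Serpina3g, Crmp1 and Cst7 rose by 4.32, 4.24, 3.56 and 3.04. On the falling side, Rasgrp2, an exchange factor for Rap1, was at 119, 119.9 and 119 CPM in the resting libraries and 36.8, 27.5 and 42.9 CPM in the effector libraries (log2 fold change -1.72, SE 0.27, adjusted p = 0.000192). Groups were apart for all of these, as the rule by which they were named required. Gpr146, Treml2, Ms4a4c, Itih5 and Sema4a fell by 2.28, 1.78, 1.73, 1.49 and 1.44. Ces2c, a carboxylesterase, had no counts in resting cells and was at 37.2, 37 and 25.9 CPM in effector cells, at least 99.4-fold higher.

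Within +/+, a few genes followed the library number rather than the state. Trim12a was at 142, 150.3 and 1.18 CPM in the resting libraries and 104, 86.2 and 0.739 CPM in the effector libraries. Of the other 12 libraries it was at 102 to 150.1 CPM in fl/fl libraries 2 and 3 of both states and at 0 to 0.596 CPM in fl/fl library 1 and all fl/+ libraries. Art2b, at 68.5, 81.05 and 7.11 CPM in the resting libraries and 81.1, 72.9 and 17 CPM in the effector libraries, and the GARP gene Lrrc32, at 256, 258 and 56.8 CPM in the resting libraries and 260.2, 194 and 60.2 CPM in the effector libraries, were low in the same +/+ pair. In fl/fl library 1 and all fl/+ libraries Art2b was at 9.39 to 31.99 CPM and Lrrc32 at 59.5 to 101 CPM. In fl/fl libraries 2 and 3 they were at 54.3 to 82.3 and 139 to 216 CPM. Lrrc32, Art2b and Trim12a all lie on chromosome 7 (GRCm38), starting at 98489283, 101576970 and 104299894. Why they varied together was not tested. The immediate early factors Fos, at 39.6, 93.6 and 14.2 CPM in the resting libraries and 58.5, 80.9 and 19.96 CPM in the effector libraries, and Jun, at 261, 464 and 155 CPM in the resting libraries and 294, 485 and 143 CPM in the effector libraries, spread widely as well, with both libraries numbered 3 the lowest. None of the 5 was called, and the spread of each within a state exceeded its difference between states. With the replicate number as a block Trim12a was called at -0.62 (adjusted p = 0.00805) and Amd1 at -1.29 (adjusted p = 0.0365). Trim12a and Trim12c are near copies, so both values are uncertain. Amd2 had no counts in resting cells and was at 23.4, 85.6 and 40.7 CPM in effector cells, while Amd1 was at 103, 116 and 96.7 CPM in the resting libraries and 72.9, 0 and 61.7 CPM in the effector libraries. These are near-identical copies of S-adenosylmethionine decarboxylase, and their sum was 103, 116 and 96.7 CPM in resting and 96.3, 85.6 and 102 CPM in effector libraries, so the call of Amd2 alone is uncertain.

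The same step from resting to effector was then compared with that of the other genotypes by the interaction in the same fit, which sets changes from different libraries against each other. In fl/+ the change differed from +/+ for 2 genes (0.0188%), Amd1 and Amd2, and 343 genes had an unadjusted p under 0.05. In fl/fl it differed for none (0%) by the edgeR test, with 953 genes at an unadjusted p under 0.05 and 15 genes called by DESeq2. With the replicate number as a block within genotype it differed in fl/fl for 120 genes (1.13%). Of these, 68 had risen and 24 had fallen in +/+, each with a smaller change in fl/fl, and 28 were not called in +/+. A smaller change here includes one of opposite sign, as for Dtx1, at 0.68 in +/+ and -0.58 in fl/fl. Since the +/+ libraries enter both the call and the difference, the split favours smaller changes in fl/fl and is a description only. Among the 28, Top2a, Ncaph, Ncapd2, Kpna2 and Ahcy had a positive difference and the rest a negative one. Top2a changed by 1.21 in +/+ and 3.23 in fl/fl. Of the 1009 genes that rose in +/+, 708 were also called higher in fl/+ and 353 in fl/fl, and of the 691 that fell 407 and 91 were, counts that are not themselves a test of a difference.

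Genes of several roles were among the 120, picked here after their values were seen. Tigit changed by 5.28 in +/+ and 2.59 in fl/fl, a blocked difference of -2.75 (SE 0.31, adjusted p = 0.000292). Prdm1 changed by 2.95 and 0.75 (difference -2.29, SE 0.36, adjusted p = 0.00372). Ccr2 changed by 6.24 and 3.04 (difference -3.26, SE 0.60, adjusted p = 0.0116). Satb1 changed by -1.97 and -0.83 (difference 1.16, SE 0.17, adjusted p = 0.00202). In each the fl/fl change was nearer to 0. Il10, Gzmb, Lag3, Icos, Nt5e, Id2, Bach2, Lef1, Bcl2 and Malt1 were also called. In fl/+ the changes of Tigit, Prdm1, Ccr2 and Satb1 were 5.39, 1.91, 6.20 and -1.70, and none of these differed from +/+ by the edgeR test.

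**Figure D5:**
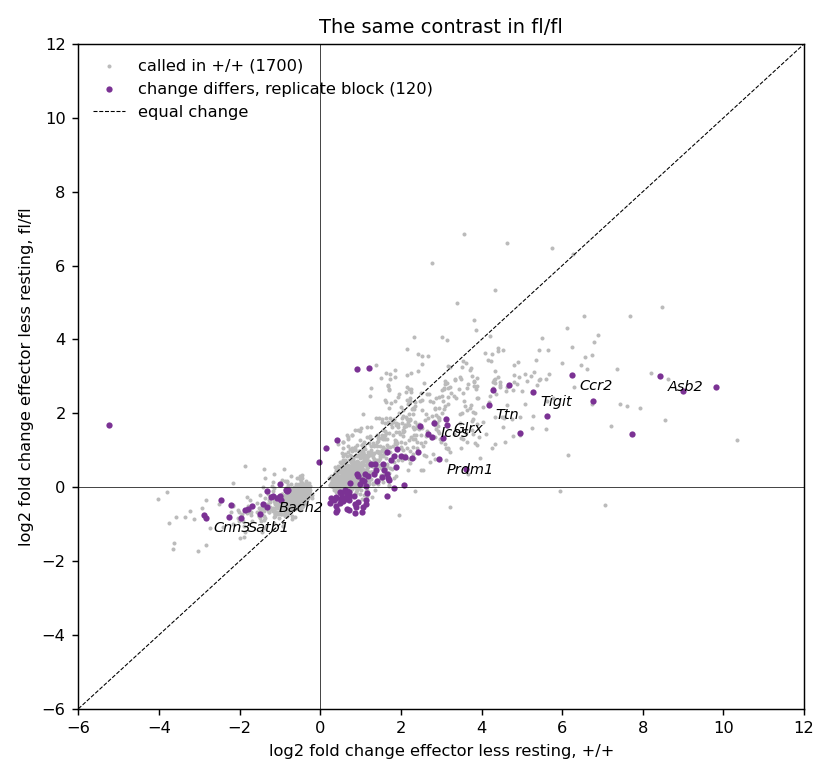
Log2 fold change from resting to effector in +/+ (horizontal) and in fl/fl (vertical) for the 1700 genes called in +/+ (grey) and the 120 whose change differs with the replicate number as a block (purple). The dashed line marks equal change. Purple points called higher in +/+ lie below it and those called lower lie above it. Among purple points not called in +/+, Top2a, Ncaph, Ncapd2, Kpna2 and Ahcy lie above it and the rest below.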

How the data were processed

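Sorted mouse Treg of 3 genotypes and 2 states gave 18 RNA-seq libraries in 6 groups of 3, grouped by the labels' genotype and Treg status, and the +/+ comparison uses 6 of them. Per the labels' protocols, sorted cells went straight into TCL lysis buffer holding 1% beta-mercaptoethanol and were frozen. The authors deposited expected counts per gene and FPKM values. Per the submitters' processing notes, bcl2fastq 2.17.1.14, STAR 2.6.0, RSEM 1.2.8 and mm10 were used, with the annotation, strand setting and filters not given in the sources used here. RSEM divides reads between near-identical copies, so such genes are uncertain, and 29.4% of expected counts above 0 were not whole.

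The deposited expected counts were rounded to whole numbers and tested with edgeR 4.0.16 (R 4.3.3; TMM factors, filterByExpr by group, quasi-likelihood fit of 6 group means over all 18 libraries, so that the spread is shared). Of 23420 genes 10630 were tested, and a call is an adjusted p (Benjamini-Hochberg) below 0.05. Standard errors come from the F statistic. CPM are deposited expected counts scaled to 1 common library size with TMM factors. Intervals have a level of 95% and, for ratios of few counts, cover counting error only, as does the floor of 3 counts used for a group at 0 (0.335 CPM over the resting group). The tests were tried on simulated counts. Fold changes are log2 throughout.

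Members and gene lists were chosen with earlier results of these data known. Named genes are the 15 highest and 15 lowest fold changes at 50 CPM or more without overlap, the 10 largest gains and losses in CPM, genes at 0 counts in 1 state and at least 10 CPM in the other, the 10 list members with the smallest standard errors that were not called, up to 5 called members per list by size of change and the best known member, genes called in an interaction, and the 10 genes with the widest range in effector libraries. Predicted gene models were left out of the first rules. Other list members, and the genes named for the blocked interaction, were picked after their values were seen. A few genes that the lists count are not reported here by name.

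The labels call the replicate number a batch. Over the 9 pairs of resting and effector libraries with the same genotype and number, deviations from the group means correlated at 0.156 to 0.530 (mean 0.321). The mean of -0.160 for other numbers of the same genotype follows largely from centring on the group means, so it is no separate baseline. On the same-number values the number was used as a block in an alternative fit. Other alternatives were RLE and upper quartile scaling, no filter or a 5 CPM filter, DESeq2 1.42.0, limma 3.58.1 (voom, and log2 of the deposited FPKM + 1 or + 0.1), a test against a 1.5-fold change, and leaving out libraries. Gene positions are those of GENCODE M21 (GRCm38, matched for 9966 genes), and promoter sequences those of RefSeq.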

Additional observations from a re-analysis of the deposited data

Results flagged for a closer look

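The step from resting to effector differed between fl/+ and +/+ for Amd2, by -15.66 on the log2 scale (SE 1.51, adjusted p = 6.1e-05 by edgeR's interaction test), and for Amd1, by 12.31 (SE 1.51, adjusted p = 0.00108). The genes are near-identical copies, their sum was 78.5 to 116 CPM over the +/+ and fl/+ libraries, and their single values are uncertain. The step differed between fl/fl and +/+ for 120 genes when the replicate number was a block, and for 0 in the fit without it.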

How the results depend on the processing

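With the replicate number as a block within genotype (paired fit) 1244 genes rose and 932 fell in +/+, 1675 of the 1700 called genes among them, and the fl/fl difference rose from 0 to 120 genes. With the number alone as a block the +/+ counts were 1147 and 833 and the fl/fl difference held 3 genes. The fl/fl count was 246 without a filter, 15 by DESeq2 and 5 on log2(FPKM + 1). It was 16 without both +/+ libraries numbered 3 (an alternative chosen after seeing the data). With 1 +/+ library left out it was 0 to 15, and 15 without +/+ effector library 3. No fl/fl library was left out for this difference. The fl/+ difference held 31 genes without a filter, 1 by limma-voom and 2 with any 1 +/+ library left out. In +/+, leaving out 1 library gave 781 to 911 genes that rose and 428 to 636 that fell. Against a 1.5-fold change 425 rose and 89 fell. On log2(FPKM + 1) 1330 rose and 459 fell, and on log2(FPKM + 0.1) 1273 and 463, so that 74.3% and 73.3% of calls were gains. The other scalings, filters and tools gave 955 to 1215 that rose and 614 to 757 that fell, and the 6 +/+ libraries alone gave 925 and 524, or 1152 and 720 in a paired fit. Where a count moved the cause was not tested, except that fewer libraries were used when some were left out. Over the values of named genes 2880 stayed the same, 161 lost the call, 11 gained it and 3 moved. The same means that a called gene kept its call and direction. For a gene not called it means that it stayed so, near its value, whatever its sign. No called gene changed direction, and none gained a call in the opposite direction. Depth limits genes under a few CPM, whose fold changes rest on few counts.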

Other observations

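Of 235 tested genes grouped as long noncoding RNAs by their GENCODE M21 biotype, 11 rose and 7 fell, so that 7.66% were called. The grouping takes in processed transcripts and was not checked gene by gene. Of 9643 protein-coding genes 16.4% were called, and the difference was not tested. AW112010 was the most abundant of those that rose, at 256, 265 and 173 CPM in the resting libraries and 715, 697 and 505 CPM in the effector libraries, and the groups did not overlap (log2 fold change 1.46, SE 0.22, adjusted p = 0.000106). Miat, a nuclear RNA, rose by 4.94. Ptprv, Trerf1 and Ifi30, which rose by 3.15, 1.23 and 0.60, are in the group only through the biotype processed transcript. Mir17hg, the host transcript of the miR-17 cluster, fell by 1.35.

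Some called genes were neighbours on the genome when only tested genes are counted, so untested genes may lie between them. S100a4, S100a6, S100a11 and S100a10 lie within chr3:90603771-93564643 (GRCm38), and all 4 rose, by 0.75 to 5.46. Dpp7, Uap1l1, Sapcd2, Fut7 and Abca2 lie within chr2:25352276-25448540, and all 5 rose, by 0.48 to 2.35. Runs that fell occurred as well, such as Nras, Ampd1, Dennd2c and Bcas2 within chr3:103058285-103179166, at -3.63 to -0.374. How often neighbours share a direction over the genome was not tested.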
